A study of Mus musculus with 6 samples.

Results

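The 10 genes described here make and regulate intestinal mucus: the secreted goblet cell products Muc2, Fcgbp, Clca1, Zg16 and Tff3, the folding factor Agr2, the membrane mucins Muc4 and Muc13, and the transcription factors Atoh1 and Spdef. They were given as a list, and each was read from the probe set that the platform annotation pairs with its symbol alone (for Muc2, which has 2 such probe sets, the one with the higher mean). All 10 of the 22180 genes with such a probe set were found, and all 10 passed the filter on dim signals, which kept 13174 genes. RNA came from the duodenum of 10-week-old mice on the C57Bl/6 background. There were 3 samples labelled wild type and 3 labelled VDR-null, from mice that lack the vitamin D receptor. Each RNA was hybridised to 1 Affymetrix Mouse Gene 2.0 ST array. For the targeted allele, the sex and the diet, nothing is given in the sources used here. Values are log2 signals, so a difference of 1 is a 2-fold change, and a difference is always VDR-null minus wild-type.

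Goblet cells are secretory cells of the villus and crypt epithelium. Notch signalling keeps most progenitors on the absorptive path, and progenitors that express Atoh1 become secretory; Spdef then drives the maturation of goblet and Paneth cells. The mature goblet cell packs the gel-forming mucin Muc2 into granules with proteins that shape the mucus. Membrane mucins differ from it in being anchored in the apical surface of epithelial cells, where they form part of the glycocalyx. In whole duodenum, fewer goblet cells and less RNA per goblet cell cannot be told apart.

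The stretches upstream of 4 of these genes are shown, as pairs chosen by their measured values. Muc4 and Muc13 are membrane mucins whose mean signals lay on opposite sides in VDR-null duodenum, and Muc2 and Fcgbp hardly differed. The Muc13 interval, -0.07 to 0.36, spans both signs. Other members, such as Atoh1 with a difference of 0.04, hardly differed either. Sequences are RefSeq's, build GRCm38.p6, the 250 bases before the first transcription start in the table, 5′ to 3′ on the plus strand; they lie at chr16:32735636-32735885 (Muc4), chr16:33793787-33794036 (Muc13), chr7:141690090-141690339 (Muc2) and chr7:28070986-28071235 (Fcgbp). Capitals mark AGGTCA on either strand, the element that receptors such as the vitamin D receptor recognise, and CAGCTG, an E-box of the kind bound by Atoh1.
Muc4: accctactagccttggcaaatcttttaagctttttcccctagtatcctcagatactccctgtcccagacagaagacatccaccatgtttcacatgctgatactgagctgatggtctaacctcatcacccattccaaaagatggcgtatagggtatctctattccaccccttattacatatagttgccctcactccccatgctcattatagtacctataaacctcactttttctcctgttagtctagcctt
Muc13: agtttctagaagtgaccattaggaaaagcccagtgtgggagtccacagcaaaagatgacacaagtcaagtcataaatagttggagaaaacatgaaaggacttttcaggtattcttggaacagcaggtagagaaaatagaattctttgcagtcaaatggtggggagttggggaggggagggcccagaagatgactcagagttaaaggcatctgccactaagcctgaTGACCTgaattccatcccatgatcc
Muc2: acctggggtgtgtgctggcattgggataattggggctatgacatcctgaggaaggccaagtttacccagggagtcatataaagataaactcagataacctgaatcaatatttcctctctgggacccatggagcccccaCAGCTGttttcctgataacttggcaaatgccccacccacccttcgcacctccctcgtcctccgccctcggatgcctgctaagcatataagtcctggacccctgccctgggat
Fcgbp: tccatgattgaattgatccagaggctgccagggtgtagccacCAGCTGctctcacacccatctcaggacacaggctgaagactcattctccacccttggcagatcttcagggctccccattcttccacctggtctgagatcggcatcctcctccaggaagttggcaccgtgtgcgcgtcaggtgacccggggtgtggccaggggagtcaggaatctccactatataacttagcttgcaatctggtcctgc

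The Muc4 stretch held neither motif, and neither did those of Agr2, Atoh1 and Spdef, not printed here. AGGTCA stood once before the first listed start of Muc13, 25 to 20 bases upstream on the minus strand; before a second listed start, not printed here, it stood 2 times, 234 to 229 and 144 to 139 bases upstream. It stood in 14.0% of the 32851 promoters of the same length in the table, both strands counted. CAGCTG stood once each before Muc2 (112 to 107 bases upstream) and Fcgbp (208 to 203 bases upstream) and in 13.0% of all promoters. The AGGTCA direct repeat with a spacer of 3 bases is the arrangement classically bound by the vitamin D receptor with its RXR partner. An exact match was absent from all 8 promoters listed for 7 of the members and present in 2 promoters of the table (0.00609%). At that share, absence from 8 promoters carries no information. Inexact repeats and sites further away were not searched. Clca1, Zg16 and Tff3 were not matched in the table. A match is a run of letters and does not show binding.

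Some facts of the whole series bear on what follows. Vdr itself did not separate the genotypes, with a difference of -0.03 ± 0.12 (SE), so its probe set does not check the labels; the labels are used as given. The first principal component carried 62.2% of the variance over the tested genes and had wild-type replicate 1 at one end and VDR-null replicate 1 at the other. Signals of 28 enterocyte brush border genes, relative to the mean of the 6 arrays, averaged -1.34 on wild-type replicate 1 and 0.88 on VDR-null replicate 1, and between -0.11 and 0.38 on the other 4 arrays. All 28 were bright enough to be tested and all 28 were higher in VDR-null duodenum (median difference 0.67), none past an adjusted p of 0.05. VDR-null replicate 3 stood apart in pancreas acinar genes, where 7 tested genes averaged 2.07 above the mean of the arrays. All 11 markers listed for duodenum and epithelium, such as Pdx1, Gata4 and Cdx2, passed the filter on dim signals. So did 7 of 15 distal intestine markers with a probe set, so passing the filter does not by itself identify the tissue. Differences of the members are therefore given with all arrays and with the replicate 1 array of each genotype left out. Those of all other genes and of the lists are given with all arrays only.

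None of the 10 genes passed an adjusted p of 0.05 in limma, and neither did any of the 13174 genes tested (0%). At an unadjusted p under 0.05 there was 1 member, Muc4, against 689 of all genes (5.23%). In 3 members, Muc4, Zg16 and Muc13, wild-type and VDR-null arrays had no overlap, against 1460 of all genes (11.1%). Of the 10, 6 had a higher and 4 a lower mean in the VDR-null group, with a median difference of 0.02; among all genes tested 44.0% were higher and the median was -0.03.

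**Figure D1:**
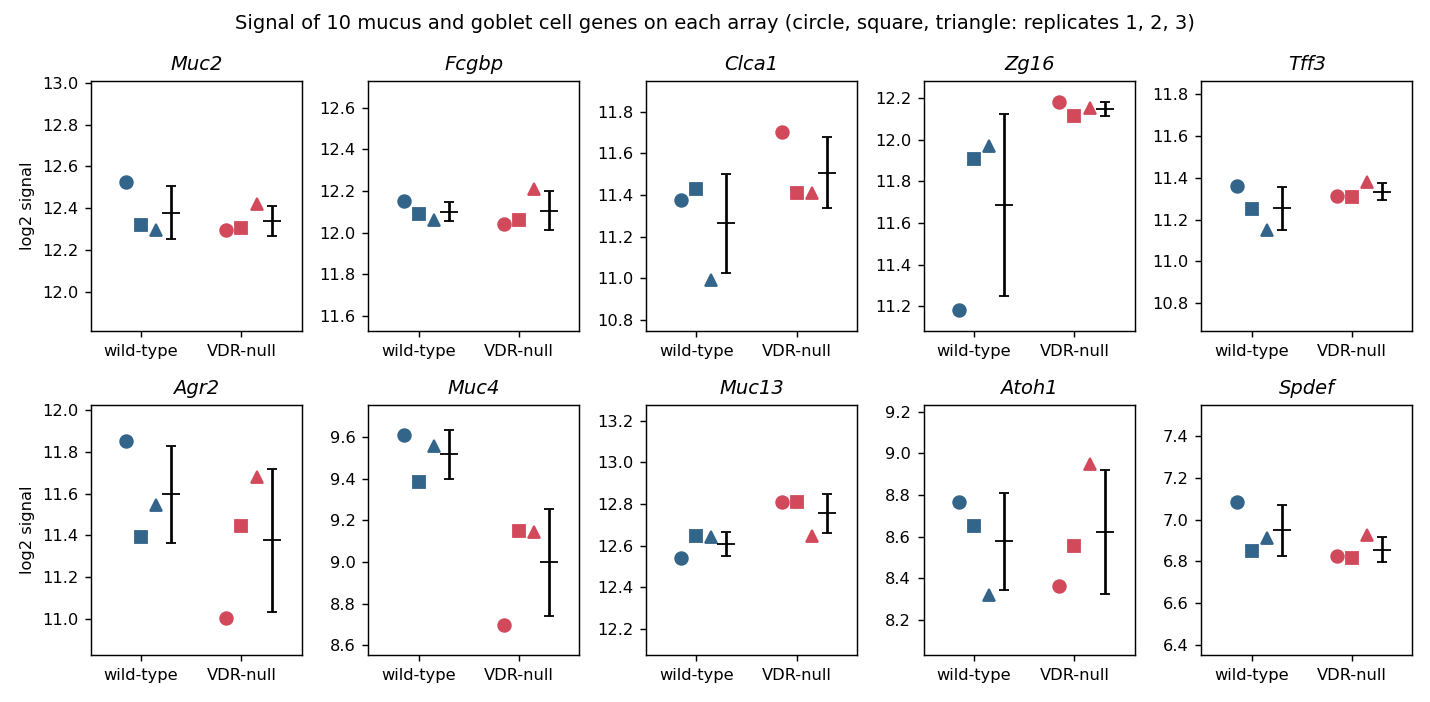
Log2 signal of each of the 10 genes (vertical axis, spanning 1.2 log2 units in every panel) in wild-type (blue) and VDR-null (red) duodenum; circles, squares and triangles are replicates 1, 2 and 3, and the black bar is the mean ± SD of 3 arrays. The groups are separate in Zg16, Muc4 and Muc13, and Muc2, Fcgbp, Tff3 and Spdef keep within 0.27 log2 units over all 6 arrays.

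Muc4, the large membrane mucin that carries EGF-like domains, had the lowest VDR-null signals relative to wild-type among the 10. Its signals, in the order of the replicate numbers, were 9.61, 9.38 and 9.56 on the wild-type arrays, against 8.70, 9.15 and 9.14 on those of VDR-null mice. Every VDR-null array lay below every wild-type array, and VDR-null replicate 1 was the lowest. The means were 9.52 ± 0.12 (SD, n = 3) and 8.997 ± 0.258 (n = 3), a difference of -0.52 ± 0.15 (SE; 95% confidence interval -0.87 to -0.17), or 1.43-fold higher in wild-type, with a limma adjusted p = 0.683. Muc4 ranked 56 of 13174 by unadjusted p. The exact permutation test gave p = 0.1, the smallest that 3 arrays against 3 allow. Muc4 was included in the list with these results known, so its rank is no independent support.

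The Muc4 difference was smaller without the arrays at the ends of the first component. It was -0.37 ± 0.10 without VDR-null replicate 1, -0.47 ± 0.17 without wild-type replicate 1 and -0.32 ± 0.11 without both. It kept its sign in all 21 alternative fits, from -0.60 to -0.32, with an adjusted p from 0.191 to 1.00. A probe set that the annotation pairs with both Muc20 and Muc4 was not used.

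Muc13, the membrane mucin of the enterocyte and goblet cell surface, lay on the other side. Its signal was 12.54, 12.64 and 12.64 on the wild-type arrays, against 12.81, 12.81 and 12.65 on those of VDR-null mice. The groups did not overlap, but VDR-null replicate 3 lay next to wild-type replicates 2 and 3. The difference was 0.15 ± 0.09 (SE; interval -0.07 to 0.36; limma adjusted p = 0.683), or 1.11-fold, and the groups overlapped after a second quantile normalization. It was 0.0852 ± 0.109 with both replicate 1 arrays left out and 0.0732 ± 0.0978 with the brush border covariate.

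Among the secreted products, Zg16, a lectin-like protein that binds Gram-positive bacteria in mucus, had the largest difference. It read 11.18, 11.90 and 11.97 on the wild-type arrays, against 12.18, 12.11 and 12.15 on those of VDR-null mice. The VDR-null arrays lay close together, while wild-type replicate 1 lay far below the rest. The difference was 0.46 ± 0.21 (SE; interval -0.03 to 0.96; limma adjusted p = 0.683), or 1.38-fold. Without wild-type replicate 1, the array lowest in brush border genes, it was 0.21 ± 0.10, without both replicate 1 arrays 0.20 ± 0.10, and 0.16 ± 0.15 when the mean of the brush border list entered the fit as a covariate. The brush border mean itself differed between the genotypes by 0.77, so this fit cannot tell enterocyte content from genotype. The part of enterocyte content in the Zg16 difference was not tested.

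Clca1, a secreted metalloprotease that acts on the mucus gel, had overlapping groups. Its signals were 11.38, 11.43 and 10.99 on the wild-type arrays, against 11.70, 11.41 and 11.41 on those of VDR-null mice. Wild-type replicate 3 was low and VDR-null replicate 1 high, and the other 4 arrays lay between 11.38 and 11.43. The difference was 0.24 ± 0.15 (SE; interval -0.11 to 0.60), and 0.11 ± 0.13 without wild-type replicate 3. Without both replicate 1 arrays it was 0.20 ± 0.17.

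Muc2, which forms the gel itself, was among the steadiest of the 10. It read 12.53, 12.32 and 12.29 on the wild-type arrays, against 12.29, 12.30 and 12.42 on those of VDR-null mice, so that the groups overlapped almost wholly. The difference was -0.04 ± 0.10 (SE; interval -0.28 to 0.20). The second Muc2 probe set read 11.88, 11.74 and 11.64 against 11.75, 11.69 and 11.86, a difference of 0.02. Without both replicate 1 arrays the difference of the first was 0.0567 ± 0.103. Both Muc2 probe sets placed wild-type replicate 1 highest.

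Fcgbp, named as an IgG Fc binding protein and secreted by goblet cells as Muc2 is, was as steady. Its signals were 12.15, 12.09 and 12.06 on the wild-type arrays, against 12.04, 12.06 and 12.21 on those of VDR-null mice, a difference of 0.0041 ± 0.089 (SE; interval -0.21 to 0.21). Tff3, the trefoil peptide of epithelial repair that goblet cells secrete with mucin, read 11.36, 11.25 and 11.15 on the wild-type arrays, against 11.31, 11.31 and 11.38 on those of VDR-null mice. Its difference was 0.08 ± 0.09 (interval -0.14 to 0.29), and the groups overlapped. Without both replicate 1 arrays the differences were 0.0601 ± 0.108 for Fcgbp and 0.14 ± 0.10 for Tff3. For Muc2, Fcgbp and Tff3 the intervals leave room for differences of up to 0.29 log2 units in size. These bounds are not a detection limit, since larger differences, such as -0.52 for Muc4, did not pass the adjusted threshold either.

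Agr2, a disulfide isomerase of the endoplasmic reticulum needed to make Muc2, spread widely in both genotypes. It read 11.85, 11.39 and 11.55 on the wild-type arrays, against 11.002, 11.45 and 11.68 on those of VDR-null mice. Its extremes were the replicate 1 arrays, wild-type at the top and VDR-null at the bottom. The difference of -0.22 ± 0.20 (SE; interval -0.69 to 0.25) was -0.03 without VDR-null replicate 1 and 0.09 without both replicate 1 arrays.

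The transcription factors did not separate the genotypes. Atoh1 read 8.76, 8.65 and 8.32 on the wild-type arrays, against 8.36, 8.56 and 8.95 on those of VDR-null mice, a difference of 0.04 ± 0.18 (SE; interval -0.39 to 0.48). Spdef read 7.09, 6.85 and 6.91 on the wild-type arrays, against 6.83, 6.82 and 6.93 on those of VDR-null mice, a difference of -0.09 ± 0.10 (interval -0.32 to 0.14). For Atoh1 the SD within each genotype, 0.23 and 0.30, was several times the difference between the means. Without both replicate 1 arrays Atoh1 differed by 0.27 ± 0.19 and Spdef by -0.0106 ± 0.104, and with the brush border covariate Atoh1 differed by 0.26 ± 0.17, so the Atoh1 value rests on which arrays and covariates enter; none passed the adjusted threshold.

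**Figure D2:**
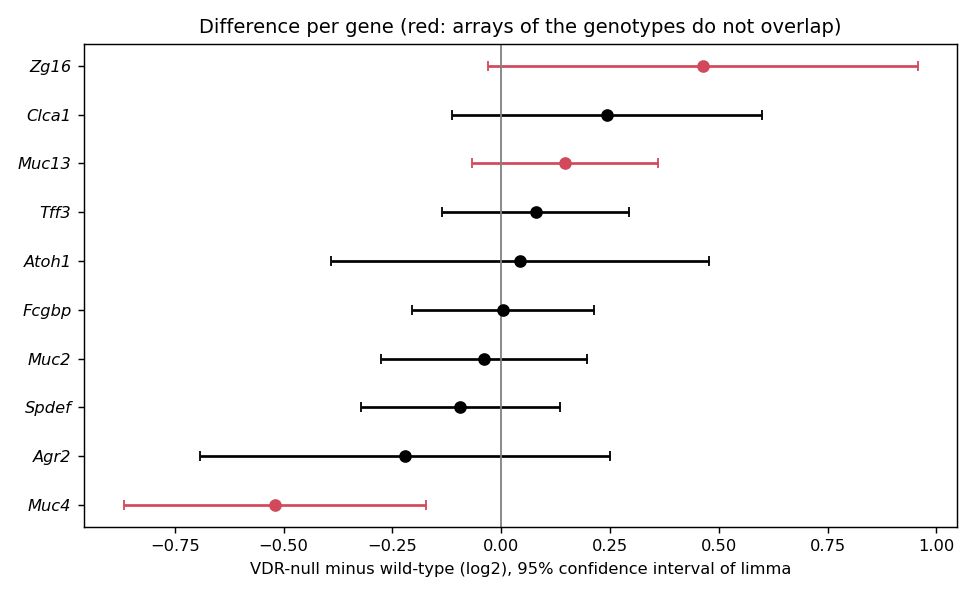
Difference of each gene, in log2 units, as VDR-null minus wild-type (horizontal axis), with the 95% confidence interval of limma; red marks the genes whose arrays did not overlap between the genotypes. The interval of Muc4, -0.87 to -0.17, is the one that leaves out 0 before correction for all genes tested.

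Across the arrays the 10 genes did not move as one block. Wild-type replicate 1 was the highest array for 4 members (Muc2, Agr2, Muc4 and Spdef) and the lowest for 2 (Zg16 and Muc13). VDR-null replicate 1 was the highest for Clca1, Zg16 and Muc13 and the lowest for Fcgbp, Agr2 and Muc4. VDR-null replicate 3 was the highest for Fcgbp, Tff3 and Atoh1, and lay above the gene's own mean in 8 of 10. Wild-type replicate 2 was never at either end.

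These profiles are set beside marker lists of other cells. Dividing crypt genes, all 26 of which were lower in VDR-null duodenum (median -0.26, none past the adjusted threshold), averaged 0.35, -0.11 and 0.16 on wild-type arrays and -0.41, -0.16 and 0.17 on VDR-null arrays, relative to the mean of the 6. Agr2, on the same scale, stood at 0.36, -0.09 and 0.06 and at -0.48, -0.04 and 0.19, close to them on every array. Muc4 followed them on the replicate 1 arrays, but stood at -0.11 on VDR-null replicate 3, where they stood at 0.17. With the crypt mean as a covariate, chosen after the values were seen, the differences were 0.07 ± 0.10 for Agr2 and -0.35 ± 0.12 for Muc4, none past an adjusted p of 0.05. Paneth cell markers, 12 of 13 lower (median -0.19), ranged from -0.36 to 0.64 on wild-type and from -0.55 to 0.42 on VDR-null arrays, with wild-type replicate 1 and VDR-null replicate 3 highest. The share of these cells in the members' differences was not tested. Other secretory and immune lists had medians of -0.10 over 17 enteroendocrine genes (6 higher, 11 lower), 0.06 over 16 tuft cell genes (11 higher, 5 lower) and 0.38 over 16 immune genes (14 higher, 2 lower), none past the adjusted threshold.

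**Figure D3:**
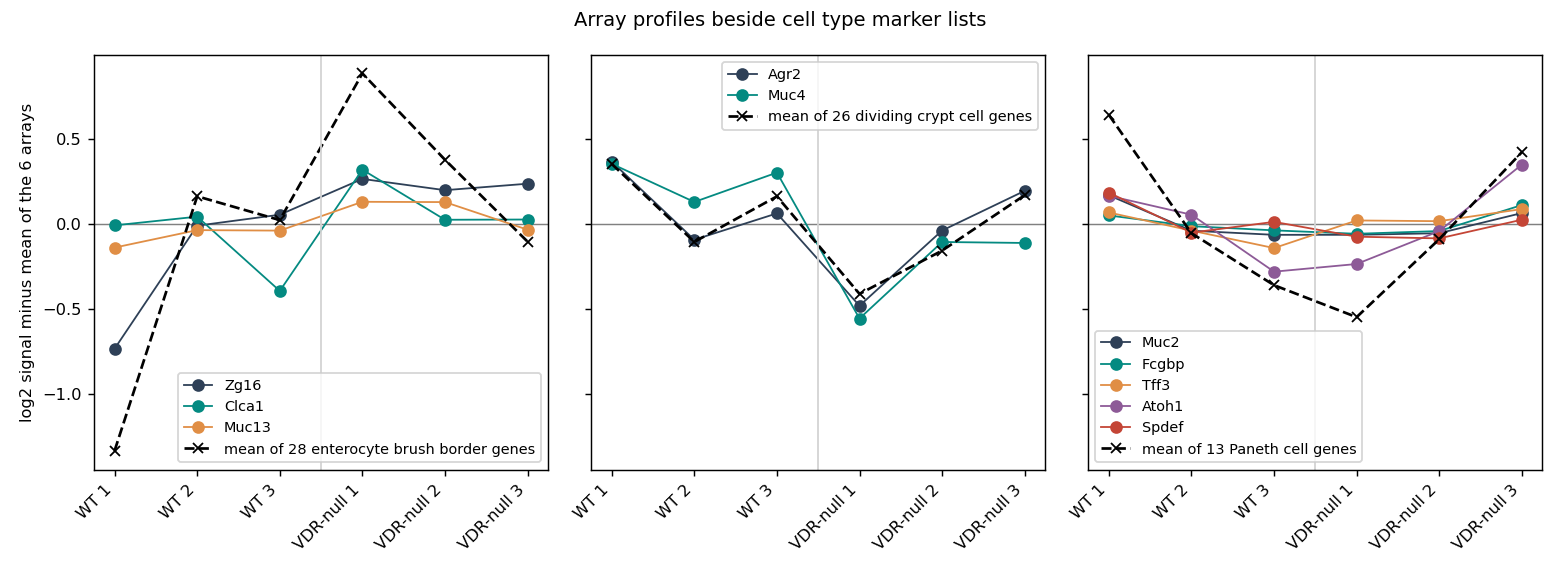
Log2 signal minus the gene's mean over the 6 arrays (vertical axis) on each array (horizontal axis, WT for wild-type); black crosses are the mean of a marker list. Zg16 dips to -0.74 on wild-type replicate 1, where brush border genes stand at -1.34, Agr2 runs with the dividing crypt genes, and Muc2, Fcgbp, Tff3 and Spdef stay near 0.

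The genes of the tissue wall and of neighbouring mucosa also differed between the arrays and are given for Muc4, whose groups did not overlap either. All 16 smooth muscle genes were lower in VDR-null duodenum (median -0.33), with array means from -0.13 to 0.37 in wild-type and from -0.18 to -0.17 in VDR-null duodenum. Of 9 tested genes of Brunner glands and gastric-type mucosa 8 were lower (median -0.46), with array means from 0.0090 to 0.46 in wild-type and from -0.45 to -0.17 in VDR-null duodenum. Their part in the Muc4 difference was not tested.

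Other mucins gave a mixed picture. Of 9 with a probe set 3 were tested, 1 higher and 2 lower. Muc6, the gel-forming mucin of Brunner glands, read 7.91, 7.41 and 5.36 on the wild-type arrays, against 6.30, 4.74 and 5.23 on those of VDR-null mice, a difference of -1.47 ± 0.70 (SE) with overlapping groups. Tff2, the trefoil peptide made by the same glands, read 9.83, 9.59 and 6.84 against 8.18, 6.19 and 7.46. Wild-type replicates 1 and 2 were the highest arrays for both Muc6 and Tff2, a pattern Tff3 did not show. The membrane mucin Muc3 differed by 0.27 ± 0.46 and Muc3a by -0.23 ± 0.18. Tff1 differed by -0.17 ± 0.09, near the filter on dim genes. Muc1, Muc5ac, Muc5b, Muc15, Muc16 and Muc19 were too dim to be tested.

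Further genes listed as goblet cell products split nearly evenly. Ang4 is in this list and in that of Paneth cells, so the counts are not of goblet cells alone. Of 27 tested genes 16 were higher and 11 lower, with a median of 0.02; 1 had an unadjusted p under 0.05 (5.23% over all genes) and 2 had separate groups (11.1% over all genes), both fewer than those shares give for 27 genes. The lowest p belonged to Clca3a1, a relative of Clca1, with 6.73, 6.25 and 6.14 on the wild-type arrays, against 5.90, 5.90 and 6.11 on those of VDR-null mice, a difference of -0.40 ± 0.17 (SE). Bcas1 differed by 0.25 ± 0.13 and the calpain Capn9 by 0.28 ± 0.15. None passed the adjusted threshold (limma adjusted p = 0.683 for these 3).

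Genes listed for mucin-type O-glycosylation, which builds the sugar chains of mucins, were higher more often than lower. Of 41 tested genes 26 were higher and 15 lower, with a median of 0.08. The list also holds enzymes known for other glycans, such as Gal3st1, B4galnt1 and St6gal1, so its counts are not of mucin chains alone. At an unadjusted p under 0.05 there were 5, 4 higher and 1 lower, and 5 had separate groups. Over all genes the shares were 5.23% and 11.1%. The count of separate groups was near its share. The count at an unadjusted p under 0.05 was above its share, and this excess was not tested. Chst4, a sulfotransferase that acts on N-acetylglucosamine of such chains, read 7.83, 8.24 and 7.79 on the wild-type arrays, against 8.69, 8.52 and 8.50 on those of VDR-null mice, a difference of 0.62 ± 0.14 (SE; limma adjusted p = 0.683). All 3 VDR-null arrays lay above all wild-type arrays. The galactosyltransferase B4galt1 differed by 0.44 ± 0.17 and the sialyltransferase St3gal3 by -0.37 ± 0.14, both without overlap. For B4galt1 the groups nearly met, at 8.54 on wild-type replicate 2 and 8.56 on VDR-null replicate 3. It was lowest on wild-type replicate 1 (8.22) and highest on VDR-null replicate 1 (9.14), as was the brush border list.

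Regulators of the secretory lineage and Notch pathway genes were lower in 22 of 30 cases, with a median of -0.04, close to the -0.03 of all genes. Neurog3, which directs progenitors to the enteroendocrine path, read 6.62, 6.62 and 7.12 on the wild-type arrays, against 6.34, 6.07 and 6.48 on those of VDR-null mice, a difference of -0.49 ± 0.17 (SE). It was the 1 gene of the list with an unadjusted p under 0.05 and with separate groups. Over all genes the shares were 5.23% and 11.1%, both more than 1 gene in 30. Hes1, the Notch effector that represses Atoh1, differed by -0.41 ± 0.19 with overlapping groups. Klf4, which acts in terminal differentiation of goblet cells, differed by 0.93 ± 0.48, with 10.11 on VDR-null replicate 1 and no more than 8.42 on any other array.

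Genes of granule release and protein folding were higher in 18 of 32 cases (median 0.03). Mep1b, a subunit of the protease meprin that releases Muc2 mucus from the epithelium, read 7.39, 9.78 and 9.23 on the wild-type arrays, against 10.93, 10.41 and 9.57 on those of VDR-null mice, a difference of 1.505 ± 0.633 (SE) with overlapping groups. Mep1b was lowest on wild-type replicate 1 and highest on VDR-null replicate 1, as was the brush border list, and the part of enterocyte content was not tested. Scfd1, of the traffic between endoplasmic reticulum and Golgi, differed by 0.20 ± 0.09, and Slc12a2, the chloride-loading cotransporter of crypt cells, by -0.50 ± 0.21. A list of type 2 cytokine genes linked to mucus production also held IL-22 and IL-10 pathway genes. Of its 12 tested genes 8 were higher (median 0.08). At an unadjusted p under 0.05 there were 0, against 5.23% of all genes. The receptor subunits Il22ra1 and Il10rb differed by 0.51 ± 0.27 and 0.34 ± 0.18, and the alarmin Il33 by 0.36 ± 0.17.

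**Figure D4:**
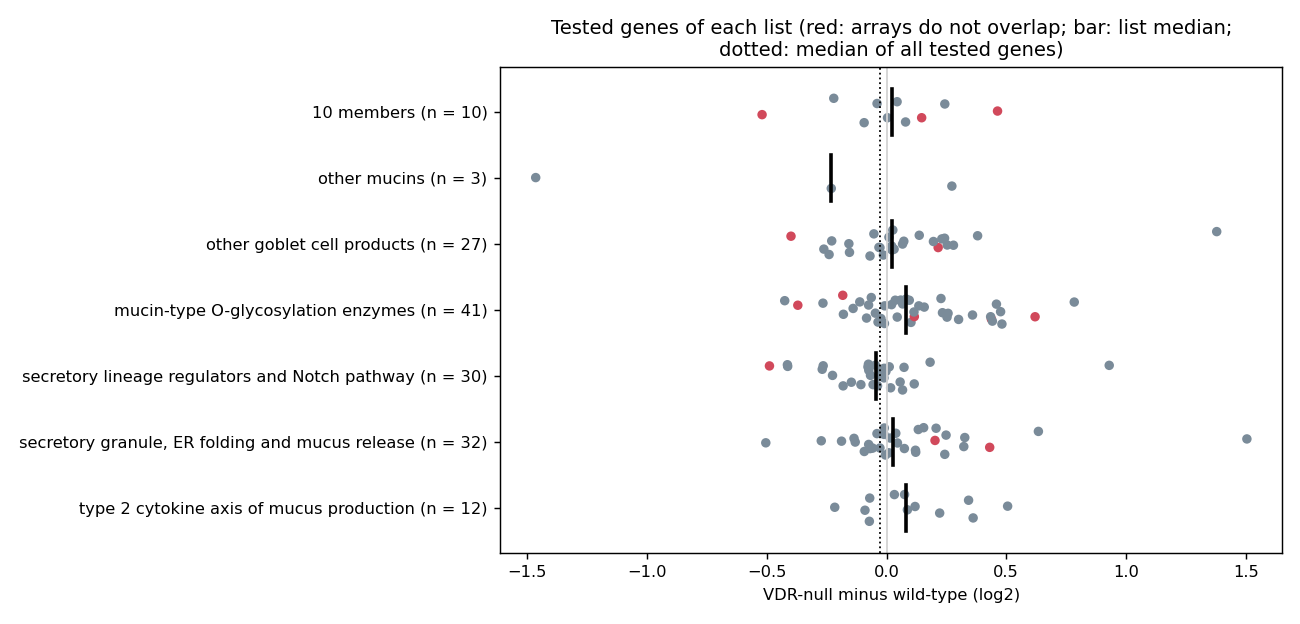
Difference, in log2 units, as VDR-null minus wild-type (horizontal axis), of every tested gene of each list; red points are genes whose arrays did not overlap, black bars are list medians and the dotted line is the median of all genes tested, -0.03. The medians lie between -0.23 and 0.08, and the genes of each list fall on both sides of 0.

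Genes nearest in pattern were named for Muc4 and for Zg16 and Agr2, the members with the widest range besides it. The measure was the root mean square difference over the 6 arrays after each gene was centred on its own mean. For Muc4 the nearest were Maged1 (0.06 log2 units), Metap1d (0.08), Vsig2, Btbd35f2 and Elmod1 (0.08 each), against 0.31 for the size of its own departures from its mean. For Zg16 they were Reg1 (0.10), B3gnt3, Mgam, Hyi and Dgat1 (0.13). For Agr2 they were Rad54l (0.03), Mpp6, Atad2, Snu13 and Tmem209 (0.04). With 13174 genes and 6 arrays, close neighbours turn up for many genes, and the likeness was not tested.

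**Figure D5:**
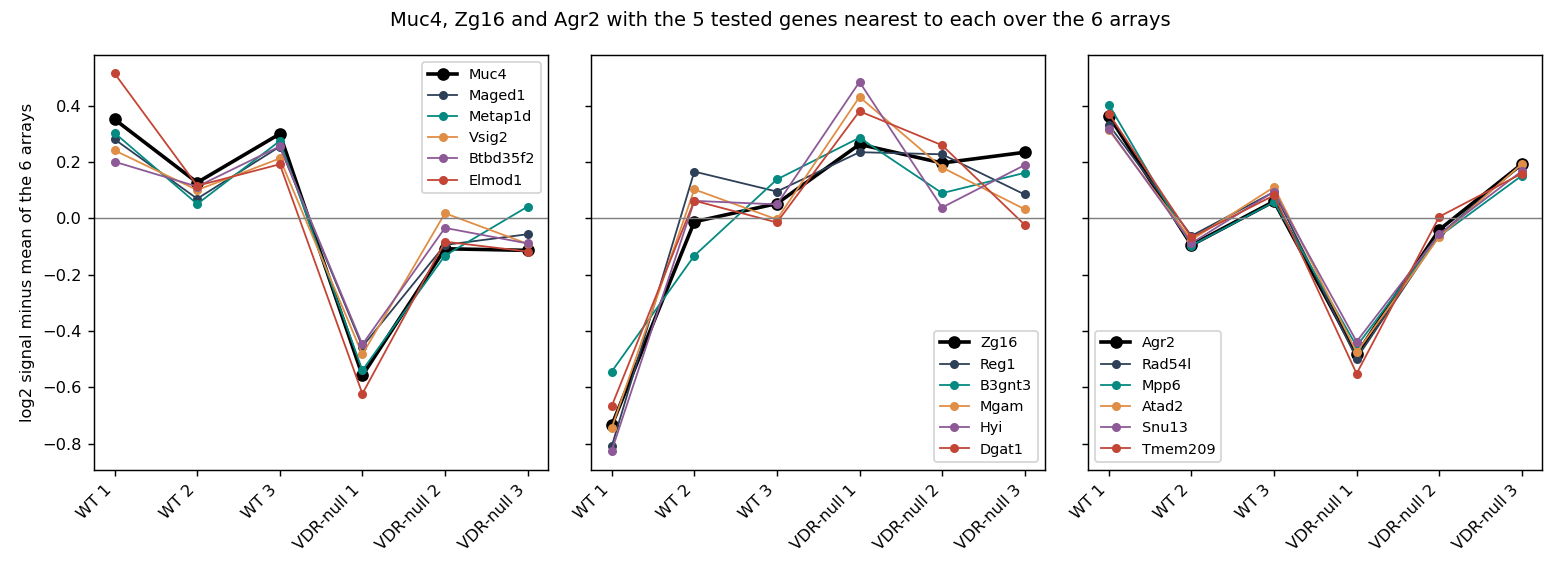
Log2 signal minus the gene's mean over the 6 arrays (vertical axis) on each array (horizontal axis, WT for wild-type) for Muc4, Zg16 and Agr2 (black) and the 5 tested genes nearest to each. The Agr2 neighbours follow it within 0.04 log2 units (root mean square), the Zg16 neighbours within 0.13.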

How the data were processed

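The authors deposited log2 signals for every probe set on each of the 6 arrays. The submitters' processing notes name RMA and Affymetrix Expression Console; no version or genome build is given in the sources used here. Of 41345 probe sets the platform annotation paired 23521 with 1 symbol, 1814 with several and 16010 with none, and only the first were named. Each gene was represented by its probe set with the highest mean. A gene was tested if at least 3 of its 6 signals exceeded the table's median, 5.17. The test was limma's (version 3.58.1, R 4.3.3), with lmFit and eBayes, two-sided and without covariates, adjusted by Benjamini-Hochberg over 13174 genes, and single genes also by exact permutation. The procedure was tested on simulated data. The number of arrays limits precision. The limma p-values set each difference against the spread between samples of the same genotype. Nothing used here says that those samples came from separate animals, so that spread may be technical.

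The members and all gene lists were chosen with earlier results of these data known. Named were the members, in each mucus-related list up to 3 tested genes with the smallest p, and the 5 genes nearest in pattern to Muc4, Zg16 and Agr2; cell type lists are given as counts and array means. Protein sequences were not used here. Alternatives were other filters, normalizations, priors, array weights, covariates, probe set rules, the replicate block and each array left out.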

Additional observations from a re-analysis of the deposited data

How the results depend on the processing

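No gene and no member passed an adjusted p of 0.05 under any of the 21 alternatives. Clca1, Zg16, Muc4 and Muc13 kept their sign in all of them. A second quantile normalization gave -0.0849 for Fcgbp and -0.0018 for Tff3, and array weights gave -0.0067 for Fcgbp. Leaving out the replicate 1 array of each genotype gave 0.0567 for Muc2 and 0.0934 for Agr2. The brush border covariate gave 0.0725 for Muc2, 0.0736 for Agr2 and 0.0089 for Spdef, and the crypt covariate, added after the data were seen, 0.0414 and 0.0702 for Muc2 and Agr2. With single arrays left out it ran from -0.0825 to 0.0338 for Muc2, from -0.0495 to 0.0349 for Fcgbp and from -0.12 to 0.17 for Atoh1, which was 0.27 without both replicate 1 arrays and 0.26 under the brush border covariate. The cause of these reversals was not tested. The count of genes at an unadjusted p under 0.05, 689 as reported, was 1278 with no filter, 1089 over all probe sets, 2718 with array weights, 372 with the replicate 1 arrays left out, 407 and 420 under the brush border and crypt covariates, and between 284 (without wild-type replicate 1) and 1569 with single arrays left out, among them 1245 without wild-type replicate 2 and 286 without wild-type replicate 3. Zg16 joined Muc4 at an unadjusted p under 0.05 without wild-type replicate 2 or 3. Members with separate groups numbered 3 as reported, 2 after the second quantile normalization and 5 without VDR-null replicate 3, where the share over all genes was 34.0%.

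The titles number the samples 1 to 3 in both genotypes, but nothing says that a number is shared. Deviations of same-numbered arrays from their genotype means correlated at -0.62, 0.19 and -0.26, so the arrays were not taken as paired. With the replicate block 338 genes had an unadjusted p under 0.05, and Muc4 differed by -0.52 ± 0.16 (SE; adjusted p = 0.831).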
